A study of Mus musculus with 8 samples.

Results

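The 78 genes described here encode cytosolic ribosomal proteins of the mouse. They were chosen by symbol, as rows of the deposited table of the whole series named Rpl, Rps or Rplp with a number and an optional letter a, l or x, or named Rpsa. Such a gene also had to reach 1 TPM (an abundance scaled for transcript length, whose total is the same in each library) in at least 2 of the 8 libraries. Of 23401 genes in that table, 81 matched by symbol and 78 reached the limit. They comprised 31 small subunit genes, 44 large subunit genes and the 3 stalk genes Rplp0, Rplp1 and Rplp2. The 3 others, Rpl3l, Rpl10l and Rpl39l, are paralogs known mainly from muscle or testis. Of these, Rpl39l reached at most 0.826 TPM in any library, Rpl3l at most 0.231 TPM, and Rpl10l was listed at 0 in all 8. Just inside the limit, Rpl26 lay between 0.729 and 2.66 TPM.

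A ribosome has a small subunit, which decodes the mRNA, and a large subunit, which joins amino acids, and each ribosomal protein is used once per ribosome, apart from the P proteins of the stalk. Ribosomal protein mRNAs are among the most abundant of a cell and mostly begin with a run of pyrimidines, the 5′ terminal oligopyrimidine tract, through which mTORC1 and LARP1 control their translation and stability. Their total level is known to follow the growth of a cell, and several of the proteins have paralogs or other roles.

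RNA was sequenced from mouse astrocytes in a conventional culture (CV) and in MGS, an abbreviation that is not spelled out in the labels, where MGS is described as soft and CV as hard. The 4 groups were MGS at day 5, CV at day 5, MGS at day 32 and CV at day 32, with 2 libraries each. The labels give no strain, age, sex or treatment beyond the culture and the day, and nothing says that the replicates came from separate animals or cultures, so the spread between them may be technical. The design compares astrocytes in MGS with conventionally cultured ones, and the comparisons below also follow each culture over time.

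The aligned sequence behind a library, as the ratio of its coverage to its FPKM gives it, was 2.15 to 4.69 gigabases. All 8 astrocyte markers (Gfap, Aqp4, Slc1a2, Slc1a3, Aldh1l1, S100b, Gja1 and Sox9) reached 1 TPM in every library, with a summed level of 16380 to 16571 TPM in MGS at day 5, 3152 to 3358 in CV at day 5, 13039 to 13071 in MGS at day 32 and 1266 to 1667 in CV at day 32. In MGS most of that sum was Gfap, at 13723 and 13744 TPM at day 5 and 9571 and 9605 at day 32. Aldh1l1 went the other way, at 257 and 251 TPM in MGS against 429 and 391 in CV at day 5. At day 32 Aldh1l1 lay at 160 and 164 TPM in MGS against 237 and 260 in CV. Aqp4 and Slc1a3 overlapped between the cultures at day 5. Markers of other cells moved with the groups too. The 8 microglia markers summed to 749 to 769 TPM in MGS at day 5, 38.0 to 38.7 in CV at day 5 with Aif1 listed at 0 in 1 of its libraries, 848 to 864 in MGS at day 32 and 11012 to 12780 in CV at day 32. Lyz2 made up most of each sum, at 9452 and 11181 TPM in CV at day 32, where all 8 markers were highest. The 4 ependymal and choroid plexus markers summed to 12561 to 16950 TPM in MGS at day 5, 2104 to 2145 in MGS at day 32 and 71.1 to 111 in the CV libraries. Ttr made up most of each sum, at 12453 and 16841 TPM in MGS at day 5 and 1878 and 1857 at day 32. Within MGS, Ccdc153 instead rose from 39.5 and 40.5 TPM at day 5 to 159 and 147 at day 32. Tmem212 rose from 23.0 and 19.5 to 63.9 and 60.2 TPM. Meningeal fibroblast markers (4) summed to 3048 to 3105 TPM in MGS and 284 to 301 in CV at day 5, and to 1829.7 to 1855 and 169 to 278 at day 32. The summed markers of endothelial and mural cells (4), of the oligodendrocyte lineage (6) and of neurons (4) were also higher in both MGS libraries than in both CV libraries at each day. These sums were at most 249, 497 and 40.5 TPM. Single markers did not all follow the sums. At day 5 Olig2 lay at 38.7 and 40.2 TPM in MGS against 162 and 150 in CV, and Snap25 and Syt1 were also lower in MGS. Tubb3 made up most of the neuron sum. The part of these other cells in the results below was not tested, and in such bulk samples fewer cells of a type and less RNA per cell cannot be told apart. CV at day 32 was the least even group. Its replicate 1 was higher than its replicate 2 for 76 of the 78 genes, by a median of 0.48 on the log2 scale.

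Windows around the RefSeq start of 58 of the 78 genes were available (GRCm38.p6). The 8 windows below were picked by hand, mostly for genes that recur in the results. Each spans 20 bases before and 20 bases from the start, so that base 21 is the start. Capitals mark the longest unbroken pyrimidine run that reaches within 10 bases of the start, where it has at least 7 bases. Another, shorter run may remain in lower case, as the one that spans the start of Rpl31 does.
Rpl31, chr1:39367831-39367870, plus strand: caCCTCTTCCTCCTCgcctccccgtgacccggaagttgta
Rps26, chr10:128626487-128626526, minus strand: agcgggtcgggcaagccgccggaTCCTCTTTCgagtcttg
Rpl39, chrX:37085203-37085242, minus strand: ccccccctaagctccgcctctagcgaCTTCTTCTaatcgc
Rps27l, chr9:66946066-66946105, plus strand: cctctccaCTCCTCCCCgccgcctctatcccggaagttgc
Rpl36al, chr12:69184048-69184087, minus strand: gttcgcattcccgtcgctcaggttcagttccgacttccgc
Rps2, chr17:24720043-24720082, plus strand: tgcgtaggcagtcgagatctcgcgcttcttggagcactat
Rpsa, chr9:120127746-120127785, plus strand: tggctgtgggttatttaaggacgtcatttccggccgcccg
Rplp0, chr5:115559447-115559486, plus strand: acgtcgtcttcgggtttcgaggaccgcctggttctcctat
Rpl31, Rps26, Rpl39 and Rps27l held such a run, of 13, 9, 8 and 9 bases, and the other 4 did not. The start in the deposited files lay 38 bases from the RefSeq start for Rpl39 and 32 bases for Rps27l, and at the RefSeq start for the others. In all, 29 of the 58 windows (50%) held a run of at least 7, against 19.7% of the 32851 promoters in the table. The motif CCGGAAG, searched on both strands of the 250 bases before and 50 bases after the start, was present in 24 of the 58 (41.4%) and in 8.86% of all promoters. AAGATGG was present in 8 of 58 (13.8%) and in 6.34% of all. A match is only a description of the letters in the window.

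Together the 78 genes held between 6.21% and 12.1% of all TPM. Their share was 10.9% and 10.4% in the libraries of MGS at day 5, 8.64% and 7.70% in CV at day 5, 6.37% and 6.21% in MGS at day 32, and 12.1% and 8.56% in CV at day 32. MGS was thus above CV in both libraries at day 5 and below it in both at day 32. As group means the shares were 10.6% ± 0.367, 8.17% ± 0.667, 6.29% ± 0.113 and 10.3% ± 2.50 (SD, n = 2) in the same order. The small subunit genes held 4.69%, 3.68%, 2.84% and 4.71% of TPM as group means, the large subunit genes 4.89%, 3.81%, 2.92% and 4.77%, and the 3 stalk genes 1.04%, 0.688%, 0.528% and 0.855%, so all 3 classes had the same low point, MGS at day 32.

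**Figure D1:**
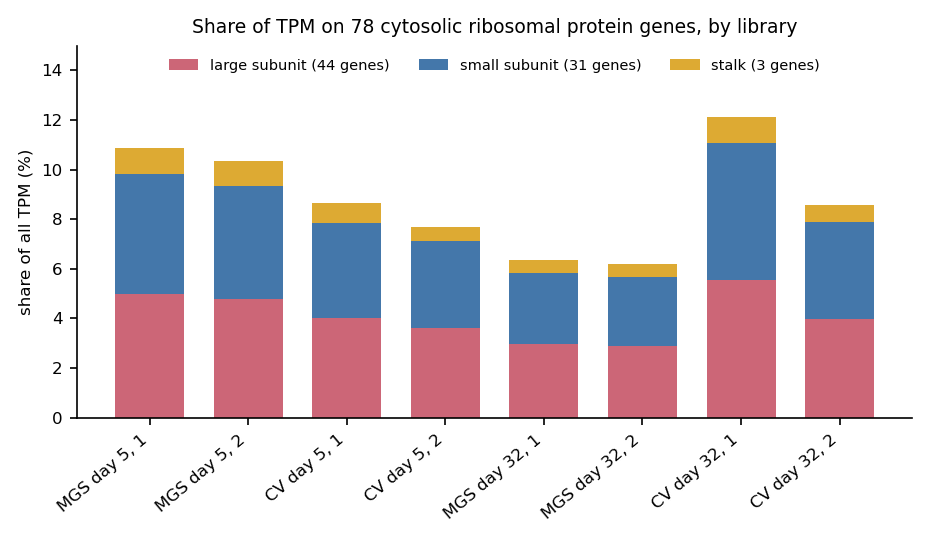
Share of all TPM (vertical axis, percent, from 0) on the 78 genes in each of the 8 libraries, stacked by large subunit, small subunit and stalk. Both libraries of MGS at day 32 lie at 6.21% to 6.37%, below the other 6, and the libraries of CV at day 32 lie apart at 12.1% and 8.56%.

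The order of the genes within the family hardly differed between groups. Across the 77 genes whose replicates did not differ over 4-fold, group mean levels on a log2 scale of TPM correlated between any pair of groups with r = 0.976 to 0.992, a description across genes that share libraries. Rplp1, the stalk protein that with Rplp2 recruits translation factors, had the highest level in every library. Its level was 6099.9 and 5498 TPM in MGS at day 5, 4045 and 2943 in CV at day 5, 2634 and 2683 in MGS at day 32, and 5629 and 3356 in CV at day 32. Of the 78 genes, 39 had a mean over 1000 TPM and 2, Rpl26 and Rpl34, a mean under 100 TPM. The genes lie on 19 chromosomes, 4 of them (Rpl10, Rpl36a, Rpl39 and Rps4x) on X. Their transcripts are short, with a median of 882 bases against 2940 for all genes tested, and 75 of the 78 are shorter than that median.

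**Figure D2:**
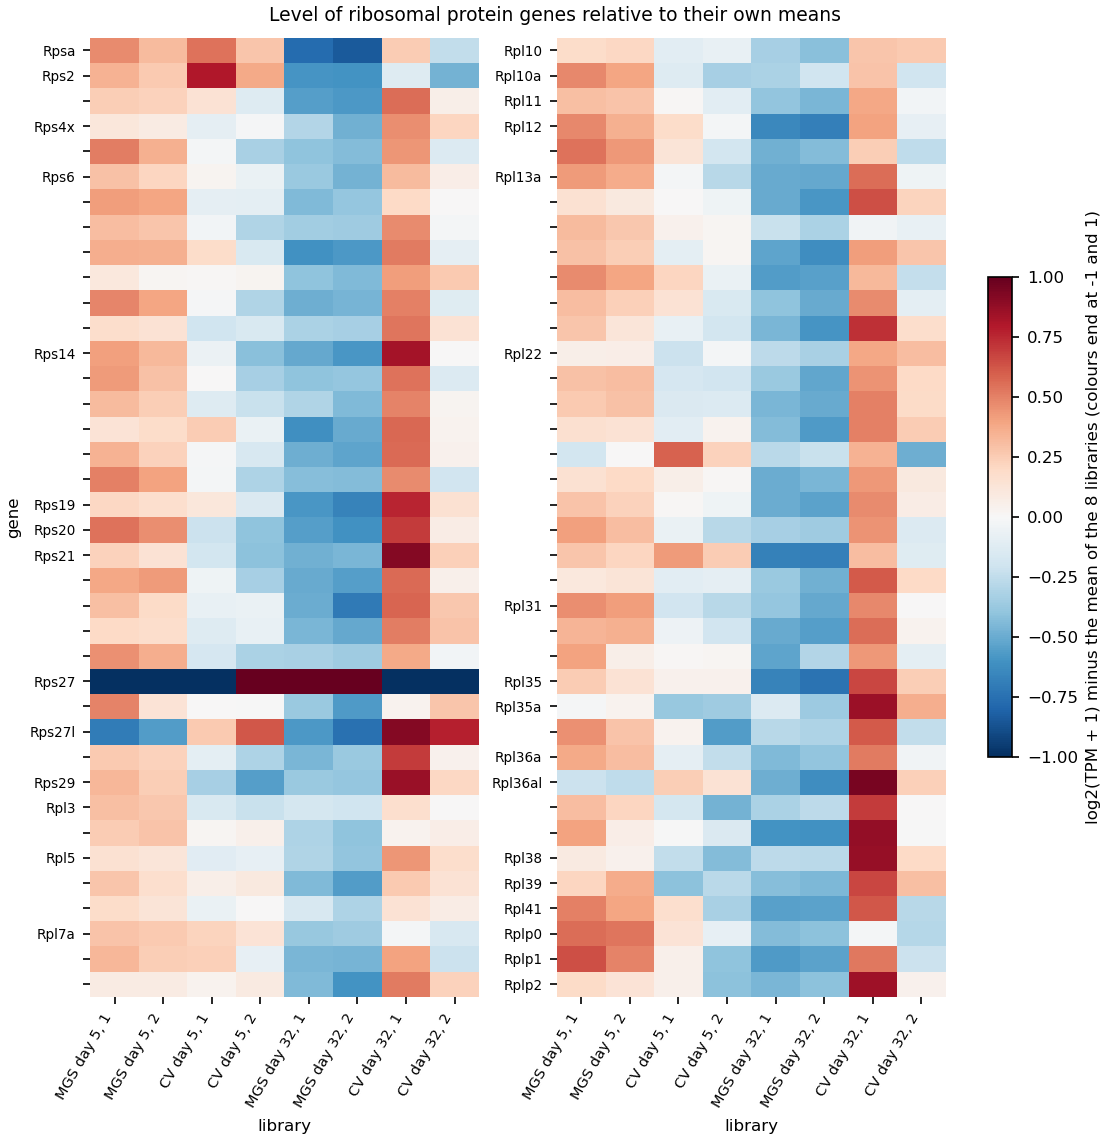
Colour map of log2(TPM + 1) of the ribosomal protein genes reported here (rows, small subunit first, then large subunit, then stalk, with the names of genes chosen by the naming rule) in the 8 libraries (columns), minus the gene's own mean over the libraries. Most rows are below their mean in both libraries of MGS at day 32, and Rps27 and Rps27l follow patterns of their own.

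One gene, Rps27 (chr3:90212667-90213648 in the files, minus strand), had replicates that differed over 4-fold. It was listed at 18.2 and 16.9 TPM in MGS at day 5, 7.99 and 1144 in CV at day 5, 1299.8 and 1127 in MGS at day 32, and 11.8 and 10.8 in CV at day 32. A second gene ID, Gm9846, was listed in the same files at chr3:90212667-90213647 on the same strand, at 2018, 1939.5, 1094, 10.6, 13.3, 13.2, 2243 and 1711 TPM in the same order of libraries. Where one ID was high the other was low in all 8 libraries. Summed over the locus they gave 2036, 1956, 1102, 1154, 1313, 1139.9, 2255 and 1722 TPM, without the jump between the replicates of CV at day 5. RefSeq places the gene with the synonym Gm9846 (Rps27rt) on chromosome 9.

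Among the other 77 genes, 3 more shared their locus with a second ID that covered at least 50% of both rows on the same strand. At the Rpl26 locus, 0.0437% to 0.170% of the summed TPM was listed under Rpl26 and the rest under Gm15772 (chr11:68901589-68904534). At the Rpl34 locus, 9.28% to 14.2% was listed under Rpl34 and the rest under Rpl34-ps1 (chr3:130726837-130730329). At the Rpl30 locus, 96.1% to 97.8% was listed under Rpl30 and the rest under Gm12191 (chr15:34440506-34443233). RefSeq places these 3 IDs on chromosomes 5, 6 and 11. Levels of Rps27, Rpl26 and Rpl34 as listed are therefore not levels of their loci, and results below are given as listed and with the rows of a locus summed, a setting added after the values were seen. With the sums, the share of TPM became 11.1%, 8.44%, 6.48% and 10.8% as means of MGS and CV at day 5 and MGS and CV at day 32.

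**Figure D3:**
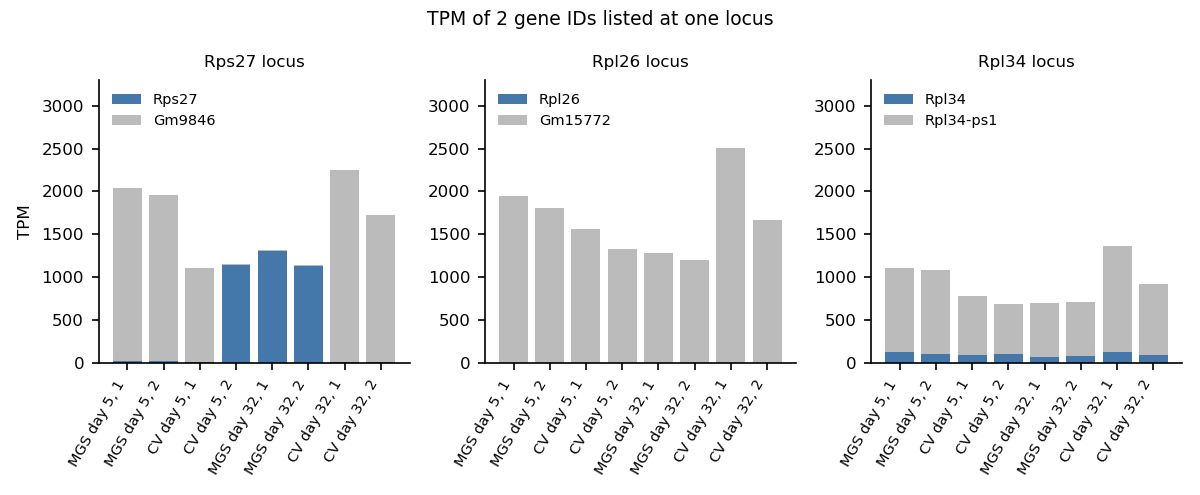
TPM (vertical axis, from 0) in the 8 libraries at the loci of Rps27, Rpl26 and Rpl34, stacked by the 2 gene IDs listed there. At Rps27 the blue part, listed under the gene's own name, is 1144 and 1127 to 1299.8 TPM in 3 libraries and at most 18.2 TPM in the other 5, while the full bars range from 1102 to 2255 TPM.

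At day 5, ribosomal protein genes were on balance higher in MGS than in CV. Of the 78, 26 were called higher and 1 lower by limma at an adjusted p under 0.05 (Benjamini-Hochberg over 14904 genes), where 22.5% of all genes were called higher and 26.4% lower. The median log2 fold change of the 78 was 0.34, against -0.14 for all genes tested, and 71 of the 78 were positive. The libraries of both groups did not overlap for 68 genes higher in MGS and 4 lower (34.4% and 49.2% of all genes). With the rows of a locus summed, the counts were 28 higher and 1 lower (22.5% and 26.5% of 14900 genes).

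Rps20, of the head of the small subunit, was highest on the log2 scale. It lay at 1969.8 and 1867 TPM in MGS and at 1164 and 1026 in CV, and rose by 0.81 ± 0.19 (log2, SE; limma adjusted p = 0.0107). Rplp1, with the values given above, was 0.75 ± 0.25 higher (adjusted p = 0.0412). Rps29, a zinc-binding protein of the small subunit, lay at 2087 and 1960.4 TPM against 1317 and 1128, a difference of 0.73 ± 0.20 (adjusted p = 0.0204). Rpl31, which lies near the exit of the peptide tunnel, lay at 1046 and 1011 TPM against 661 and 624, a difference of 0.68 ± 0.16 (adjusted p = 0.00953). In none of these 4 did the libraries of the groups overlap, but each of these calls was lost when either library of MGS at day 5, or replicate 2 of CV at day 5, was left out (limma adjusted p = 0.0532 to 0.227).

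Among genes known for other roles, Rpl10a (0.67 ± 0.16, adjusted p = 0.0129), Rplp0, the scaffold of the stalk (0.52 ± 0.12, 0.0115), Rpl3, beside the peptidyl transferase centre (0.47 ± 0.10, 0.00541) and Rpl39, of the tunnel wall (0.63 ± 0.14, 0.00745) were higher in MGS. Rps6, the subunit that S6 kinase phosphorylates, differed by 0.27 ± 0.11 (adjusted p = 0.0865). Rpl5 and Rpl11, which with 5S rRNA can bind Mdm2, differed by 0.24 ± 0.11 and 0.34 ± 0.14 (adjusted p = 0.116 and 0.0807). Rps19, the gene most often mutated in Diamond-Blackfan anaemia of humans, differed by 0.20 ± 0.19 (adjusted p = 0.411). Of the X-linked genes, Rpl10 (0.28 ± 0.09, 0.0281) was also higher, and Rps4x differed by 0.15 ± 0.12 (0.326). The 1 gene called lower was Rps27l, described below.

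The day 5 difference of the family depended on how transcript length and base composition were treated. After a correction of each library for the transcript length and GC content of all genes, 11 of the 78 were called higher and 13 lower (26.5% and 40.1% of 14789 genes). The median fell from 0.34 to 0.086, against -0.14 and -0.13 for all genes. The 11 were all among the 26, and included Rpl3, Rpl15, Rpl17, Rpl23, Rpl31, Rpl39, Rps7, Rps20, Rps26 and Rps29. Leaving out 1 library at a time gave medians of 0.30 to 0.39, against -0.20 to -0.085 for all genes. The number of genes called was unstable. Fewer were called higher without any 1 library of MGS or of CV at day 5, and more without either library of CV at day 32. Shares of all genes are not set beside these fits, so the change in calls is not a result about the family.

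At day 32 the direction was the opposite and nearly the whole family took part. In MGS, 69 of the 78 genes were called lower and 1 higher by limma at an adjusted p under 0.05, where 14.8% of all genes were called lower and 52.8% higher. The median log2 fold change was -0.73 (a level 0.604 of that in CV), against 0.56 for all genes tested. The libraries did not overlap for 76 genes lower in MGS and 1 higher (20.9% and 63.6% of all genes). The gene called higher was Rps27 as listed. With the rows of a locus summed, 71 genes were called lower and 0 higher (14.9% and 52.8% of 14900 genes), and no gene had a positive fold change. The 7 genes then not called were Rpl10a, Rpl13, Rpl15, Rpl36, Rpl41, Rplp0 and Rps2.

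The genes with the largest falls in MGS at day 32 were Rps27l (fold change -1.51 ± 0.14, limma adjusted p = 8.22e-05) and the following 4. Rpl35, at the rim of the peptide tunnel, lay at 912 and 870.0 TPM in MGS and at 2305 and 1717 in CV, a difference of -1.16 ± 0.14 (adjusted p = 0.000341). Rpl36al, an autosomal copy of the X-linked Rpl36a, lay at 273 and 249 TPM against 741 and 453, a difference of -1.15 ± 0.21 (adjusted p = 0.00214). Rps19 lay at 742 and 698 TPM against 1888 and 1235, a difference of -1.08 ± 0.19 (adjusted p = 0.00207). Rps21 lay at 1118 and 1135 TPM against 2942 and 1843, a difference of -1.05 ± 0.21 (adjusted p = 0.0032). In each of them both MGS libraries were below both CV libraries, and replicate 1 of CV was the highest.

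Rps6 differed by -0.61 ± 0.11 (adjusted p = 0.00238), Rpl5 by -0.66 ± 0.11 (0.00156), Rpl11 by -0.60 ± 0.14 (0.00695) and Rpl38, known in the mouse for its role in Hox mRNA translation, by -0.80 ± 0.20 (0.00948). Rpl13a, also part of an interferon-induced translational silencing complex in humans, differed by -0.77 ± 0.19 (0.00932). Of the 3 stalk genes, Rplp1 (-0.71 ± 0.25, 0.0371) and Rplp2 (-0.88 ± 0.26, 0.0181) were called lower, while Rplp0 differed by -0.27 ± 0.12 (0.0872). Rpl41, the smallest ribosomal protein, was listed at 2142 and 2155 TPM in MGS and at 4799 and 2573 in CV, and its difference of -0.71 ± 0.28 was not called (0.0576).

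The day 32 difference was also present after the length and GC correction, with 74 genes called lower and 1 higher (40.2% and 30.7% of 14789 genes). The median was then -0.72, against -0.087 for all genes. Relative to the median of all genes, the family's median was -0.63 with the correction and -1.28 without it. The size of the day 32 difference rested partly on the uneven CV libraries. Without replicate 1 of CV at day 32 the median was -0.51, against 0.37 for all genes, and without replicate 2 it was -0.96, against 0.74. Without replicate 1 or 2 of MGS at day 32 the median was -0.75 and -0.70, against 0.56 for all genes, and fewer genes were called lower. In the same CV libraries the summed microglia markers stood at 11012 and 12780 TPM, against 848 to 864 TPM in MGS.

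**Figure D4:**
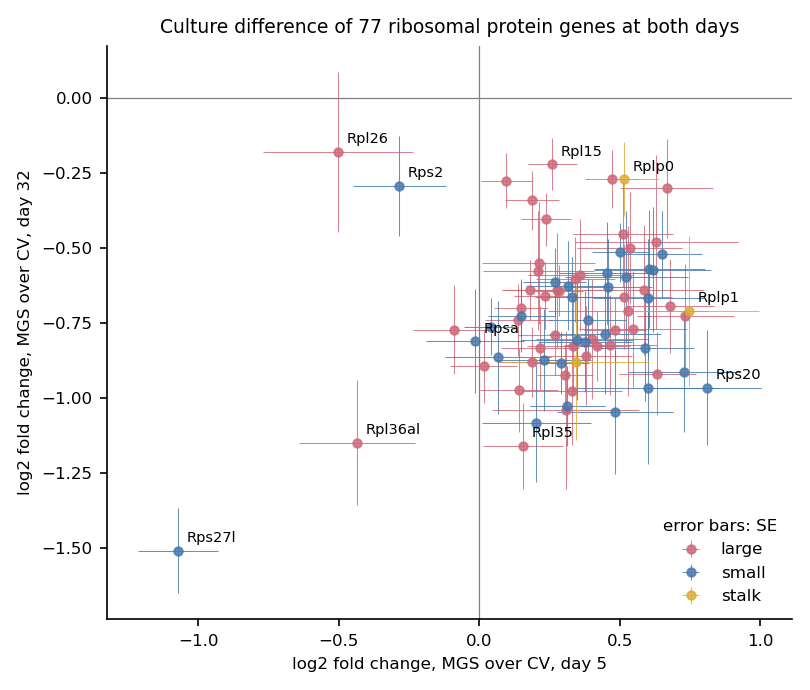
Log2 fold change of MGS over CV at day 5 (horizontal) and at day 32 (vertical) for 77 genes, without Rps27, coloured by class, with standard errors from the limma fit of log2(TPM + 1). Most points lie at lower right, positive at day 5 and negative at day 32, and Rps27l, Rpl36al, Rps2 and Rpl26 as listed are to the left of the rest.

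Among all 78 genes, the group with the lowest mean was MGS at day 32 in 72 and CV at day 5 in 5. The highest was MGS at day 5 in 38 and CV at day 32 in 35. Set side by side, 22 genes were called higher in MGS at day 5 and lower at day 32, and 71 of the 78 were positive at day 5 and negative at day 32, called or not. Of all genes, 22.5% were called higher at day 5 and 14.8% lower at day 32. The share of all genes with both was not counted. Rps27l was called lower at both days, and Rpl26 as listed, Rpl36, Rpl41 and Rps2 were called at neither. With the rows of its locus summed, Rpl26 was called lower at day 32 (-0.72 ± 0.19, limma adjusted p = 0.0119). The culture by day interaction, the difference at day 32 minus that at day 5, was called negative for 72 genes and positive for 1, Rps27 as listed (12.3% and 49.7% of all genes). Its median was -1.09, against 0.65 for all genes. Relative to the median of all genes, the family's median difference was 0.48 at day 5, -1.28 at day 32 and -1.75 for the interaction, and the corresponding values with the length and GC correction were 0.22, -0.63 and -0.79. With the rows of a locus summed, it was called for 75 genes, all negative (12.3% negative and 49.7% positive of 14900 genes), and the 3 others were Rpl36al, Rps2 and Rps27l. The most negative were Rps20 (-1.78 ± 0.27, limma adjusted p = 0.0016), Rps29 (-1.64 ± 0.29, 0.00271), Rps14 (-1.57), Rpl39 (-1.55 ± 0.19, 0.000714) and Rps21 (-1.53 ± 0.29, 0.00386). After the length and GC correction 61 were negative and 3 positive (26% and 31.7% of 14789 genes).

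Within MGS the family fell from day 5 to day 32. Of the 78 genes 69 were called lower and 1, Rps27 as listed, higher, where 7.53% of all genes were called lower and 35% higher. The median was -0.72, against 0.36 for all genes. The libraries of both days did not overlap for 76 genes lower and 1 higher (20.7% and 67.9% of all genes). With the rows of a locus summed 71 were called lower and 0 higher (7.52% and 35% of 14900 genes). After the length and GC correction 72 were called lower and 1 higher (27% and 22.4% of 14789 genes). Rpsa, which is also known as a precursor of the laminin receptor, fell most, from 1365 and 1229.7 TPM to 577 and 550.1, by 1.20 ± 0.17 on the log2 scale (limma adjusted p = 0.00203). Rplp1 fell by 1.12 ± 0.25 (0.0113), Rps20 by 1.08 ± 0.19 (0.00476), and Rpl12, at the base of the stalk, by 1.08 ± 0.16 (0.00246). Rpl12 lay at 1546 and 1418 TPM at day 5 and at 711 and 690.1 TPM at day 32. The 8 genes not called were Rpl26 as listed, Rpl35a, Rpl36, Rpl36al, Rpl37, Rpl38, Rplp2 and Rps27l. With the rows of its locus summed, Rpl26 was called lower (-0.59 ± 0.19, limma adjusted p = 0.0401). Without 1 of the MGS libraries fewer genes were called lower, and the median stayed between -0.76 and -0.68, against 0.35 to 0.37 for all genes.

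Within CV, 31 genes were called higher at day 32 and 2 lower, where 16% of all genes were called higher and 37.7% lower. The median was 0.38, against -0.31 for all genes. The libraries of both days did not overlap for 46 genes higher and 4 lower (22.3% and 49.8% of all genes). With the rows of a locus summed 33 were called higher and 2 lower (16% and 37.7% of 14900 genes). Rpl35a, another gene mutated in Diamond-Blackfan anaemia, went from 232 and 236 TPM to 547 and 389, a rise of 0.97 ± 0.16 (limma adjusted p = 0.00256). Rps29 rose by 0.97 ± 0.20 (0.00635), Rps21 by 0.88 ± 0.21 (0.0104), Rpl38 by 0.87 ± 0.20 (0.00962) and Rpl39 by 0.82 ± 0.14 (0.0025). The 2 that fell were Rps2, of the mRNA entry channel, by 0.89 ± 0.17 (0.00404) and Rpl7a by 0.27 ± 0.09 (0.0417). Rps2 lay at 2773 and 2075 TPM at day 5 and at 1458 and 1147 at day 32. Neither fall was called after median-of-ratios scaling or from FPKM, where Rps2 stayed negative and Rpl7a turned positive. After the length and GC correction, 9 genes were called higher and 12 lower (25.5% and 36.7% of 14789 genes). The median was then -0.038, against -0.10 for all genes. Without replicate 1 of CV at day 32 the median was 0.13, against -0.16 for all genes, and without replicate 2 it was 0.61, against -0.46. Without replicate 1 or 2 of CV at day 5 it was 0.44 and 0.32, against -0.36 and -0.25, and fewer genes were called higher.

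To describe departures from the family, each library was centred on the median of the 77 genes whose replicates did not differ over 4-fold and all genes were fitted again, a setting added after the values were seen. At day 5, Rps20 and Rps29 were above the family's median difference and Rps27l, Rpl26 as listed, Rpl36al, Rps2 and Rpl29 below it (11.6% of all genes were above and 31.5% below). Only Rps27l (-1.42, limma adjusted p = 0.000107), Rpl36al (-0.78, 0.0033) and Rps2 (-0.63, 0.00643) were called in all 8 fits that left out 1 library. At day 32, 9 genes were above and 3 below (77.4% and 3.39% of all genes). Besides Rps27 as listed, Rplp0 (0.50, adjusted p = 0.0043) and Rps27l (-0.74, 0.00253) were called in all 8 such fits. Rpl3 (0.50), Rpl10a (0.47) and Rps2 (0.48) were called above in 7 of the 8, and Rpl35 (-0.39) below in 6. Within MGS over time, 10 genes were above the family and 1, Rpsa (-0.41), below it (83.3% and 0.711% of all genes). For the interaction 7 were above and 2, Rps20 (-0.66) and Rps29 (-0.52), below (81.3% and 3.16%). The calls of Rpsa in MGS over time and of Rps29 in the interaction were not kept in every fit that left out 1 library. Among those kept in every such fit were Rps27l (0.76) in MGS over time, and Rps2 (1.11) and Rps20 in the interaction. Within CV over time, 6 genes were above and 6 below (7.6% and 42.2% of all genes). Of these, Rps2 (-1.22, adjusted p = 0.000111), Rpsa (-0.74, 0.00209) and Rplp0 (-0.51, 0.00878) were below the family and Rpl35a (0.65, 0.00844) and Rps29 (0.64, 0.00354) above it, each in all 8 fits.

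With the length and GC correction added, more genes departed, 14 above and 17 below at day 5 (22.7% and 37.8% of all genes), 26 and 12 at day 32 (71.2% and 9.56%), 10 and 25 in CV over time (19.99% and 35.7%) and 26 and 13 in the interaction (73.0% and 8.44%).

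In the comparison of MGS with CV at each day, Rps27l, the p53-inducible paralog of Rps27, stood furthest from the family's median, Rps27 as listed aside. It lay at 294 and 325 TPM in MGS at day 5, 575 and 736 in CV at day 5, 320.1 and 285 in MGS at day 32, and 905 and 819.8 in CV at day 32, so that all 4 MGS libraries were below all 4 CV libraries. MGS was lower by limma at day 5 (-1.07 ± 0.14, adjusted p = 0.000671) and at day 32 (-1.51 ± 0.14, 8.22e-05). Relative to the summed Rps27 locus, Rps27l stood at 14.4% and 16.6% in MGS at day 5, 52.2% and 63.7% in CV at day 5, 24.7% ± 0.468 (SD, n = 2) in MGS at day 32, and 40.1% and 47.6% in CV at day 32. Its interaction with the day was not called (-0.44 ± 0.20, adjusted p = 0.0919).

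Rpl36al showed the same order of cultures relative to its partner Rpl36a, with 42.7% and 43.8% in MGS at day 5, 81.9% and 85.1% in CV at day 5, 62.5% and 55.4% in MGS at day 32, and 87.0% and 78.3% in CV at day 32. Rpl36a itself lay at 773 and 734, 556 and 499, 436 and 450.4, and 851 and 578 TPM in these groups, and was called higher in MGS at day 5 (0.51 ± 0.17, limma adjusted p = 0.0425) and lower at day 32 (-0.66 ± 0.17, 0.0115). Rpl22 lay at 265 and 267, 219.6 and 251, 213 and 204, and 334 and 316 TPM. Rpl22l1, a paralog that Rpl22 is known to repress in the mouse and that the symbol rule left out, went another way. It stood at 96.5% and 105% of Rpl22 in MGS at day 5, 68.3% and 76.7% in CV at day 5, 108% and 105% in MGS at day 32, and 139.7% and 146% in CV at day 32. Rpl7l1 stood at 4.47% to 7.67% of Rpl7 in all 8 libraries.

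**Figure D5:**
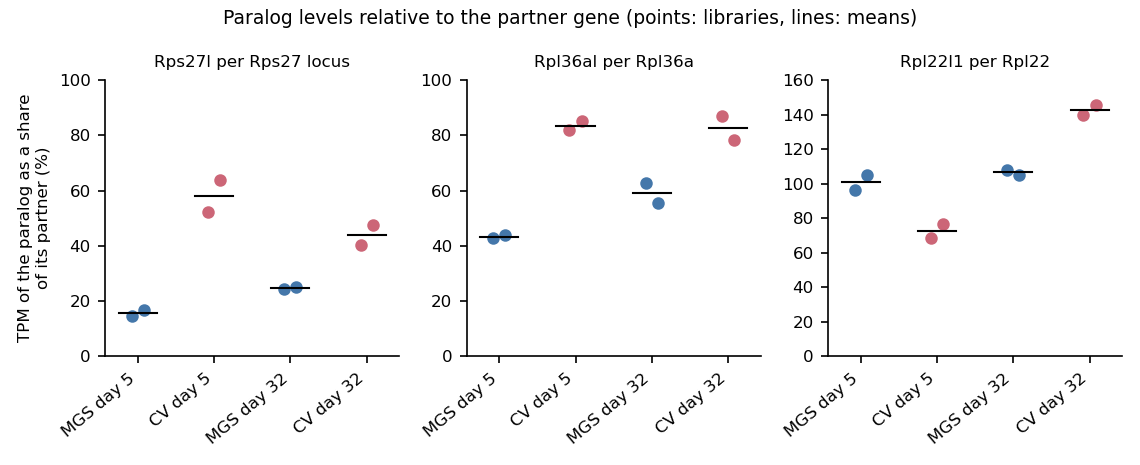
TPM of Rps27l, Rpl36al and Rpl22l1 as a percent of the summed Rps27 locus, Rpl36a and Rpl22 (vertical axes, from 0) in the 4 groups, with a point per library and a line at the mean of 2. Rps27l and Rpl36al are lower in the MGS libraries than in the CV libraries of the same day, and Rpl22l1 is highest in CV at day 32, at 139.7% and 146%.

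Many of the transcripts share sequence with other genes, since ribosomal protein genes have many processed pseudogenes. For 31 of the 78, at least 50% of the 50-base stretches of the transcript also occurred in a transcript of another gene of the GENCODE annotation. Leaving Rps27 aside, 44 of 47 genes with less sharing and 25 of 30 with more were called lower in MGS at day 32 (14.8% of all genes). The medians were -0.81 and -0.65, against 0.56 for all genes. At day 5, 15 of 47 and 11 of 30 were called higher (22.5% of all genes), with medians of 0.35 and 0.34, against -0.14 for all genes. Among the genes with a promoter window, the median difference was 0.35 at day 5 and -0.68 at day 32 for the 28 with a pyrimidine run of at least 7, and 0.28 and -0.71 for the 29 without one.

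Of 6 ribosomal proteins that the symbol rule left out, 4 were called higher and 1 lower in MGS at day 5 (22.5% and 26.4% of all genes). The counts at day 32 were 0 and 4 (52.8% and 14.8% of all genes). At day 5, Fau (0.81 ± 0.23, limma adjusted p = 0.0235), whose product is cut into a ubiquitin-like protein and a ribosomal protein, was higher in MGS, as were Gnb2l1, which encodes the scaffold Rack1 (0.33 ± 0.12, 0.0481), and Rpl22l1 (0.65 ± 0.13, 0.00541). Rpl7l1 was lower (-0.46 ± 0.14, 0.0327), and Rps3a1 differed by 0.20 ± 0.12 (0.198). At day 32, Fau (-0.94), Gnb2l1 (-0.48), Rps3a1 (-0.67) and Rpl22l1 (-1.06) were called lower, and Rpl7l1 (-0.03) was not called.

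Most other parts of the translation machinery had more genes called lower than higher in MGS at day 5, where 22.5% of all genes were called higher and 26.4% lower. Of 52 ribosome biogenesis genes, 0 were called higher and 39 lower in MGS at day 5 (median -0.65), where Utp20 (-1.73), Rrs1 (-1.38) and Nop58 (-1.36) fell most. Of 39 initiation factors, 2 (Eif3f and Eif3k) were called higher and 18 lower, of 20 cytosolic aminoacyl-tRNA synthetases 0 and 14, of 76 mitochondrial ribosomal proteins 1 and 31, and of 8 elongation factors 0 and 3. Of 19 other mRNAs known to carry a pyrimidine tract, of which 14 are also in other lists, 5 were called higher, among them Tpt1 (0.69), and 3 lower, with a median of 0.030 against -0.14 for all genes. At day 32, where 52.8% of all genes were called higher and 14.8% lower, these lists gave 8 higher and 10 lower for biogenesis, 8 and 8 for initiation, 2 and 4 for the synthetases, 2 and 34 for the mitochondrial ribosome, 3 and 4 for elongation, and 2 and 8 for the other tract mRNAs. Eef1a1, the main elongation factor, lay at 5129 to 8175 TPM in the 8 libraries and was called at neither day, and Eef2, the translocase, was called higher in MGS at day 32 (0.47).

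Of 21 regulators of mTORC1 and of tract mRNAs, 2 were called higher and 8 lower in MGS at day 5 (22.5% and 26.4% of all genes). At day 32, 13 were called higher and 3 lower (median 0.75, against 0.56 for all genes), so the day 32 counts were near the shares of 52.8% and 14.8% of all genes. Mtor lay at 15.2 and 15.3 TPM in MGS and 23.2 and 26.3 in CV at day 5, and at 29.4 and 31.4 in MGS and 9.19 and 14.8 in CV at day 32. It was called lower at day 5 (-0.66 ± 0.21, limma adjusted p = 0.0358) and higher at day 32 (1.31 ± 0.21, 0.0013). Larp1, which binds pyrimidine tracts, did likewise (-0.58 ± 0.15, 0.0139, and 0.75 ± 0.15, 0.00306). Both thus had the opposite sign to most ribosomal protein genes at each day, and the same sign as the median of all genes (-0.14 and 0.56). A link between these 2 genes and the family was not tested. Eif4ebp1, a repressor of cap-dependent translation and mTORC1 target, was lower at both days (-0.83 and -1.07). Myc differed by 0.26 ± 0.16 at day 5 (adjusted p = 0.224) and was higher in MGS at day 32 by 1.22 ± 0.16 (0.000533).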

How the data were processed

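RNA of mouse astrocytes was sequenced in 8 libraries, 2 for each of 4 groups, from directional libraries per the labels' protocols. The submitters' processing notes name bcl2fastq, HISAT2 2.1.0, StringTie 1.3.4d and the builds hg38 and mm10, without roles, and gene coordinates in the files were used as mm10. The authors deposited, per library and gene, the coverage (mean read depth per base), the FPKM and the TPM, and for the series a table of TPM. No read counts were used, since these files hold abundances. TPM sums to a fixed total, so a rise in some genes lowers the rest.

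The rows of a gene were summed within a library. Genes at 1 TPM or more in at least 2 libraries (14904) were fitted as log2(TPM + 1) with limma 3.58.1 in R 4.3.3 (4 group means, all 8 libraries, mean-variance trend, Benjamini-Hochberg over all genes fitted). The pseudocount understates the changes of low genes. The fit was tested on simulated data. Members and lists were chosen with earlier results of these data known. Genes are named where they were among the 5 largest called changes each way in a comparison, had replicates over 4-fold apart, or stood on a list of well-known members and pathway genes. Other scalings, FPKM, another pseudocount, no filter, correcting each library for transcript length and GC, a replicate block, leaving out each library, and summing gene IDs at one locus were tried. An exact permutation test of 2 against 2 libraries cannot give a two-sided p under 0.333 and was not used. Sequences are from RefSeq (GRCm38.p6), and those of genes on chromosome 18 are not shown. A few genes enter the fits and counts but are not reported here by name.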

Additional observations from a re-analysis of the deposited data

Results flagged for a closer look

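The culture by day interaction, a limma test of whether the difference between MGS and CV changed from day 5 to day 32, was called for 28 of the ribosomal protein genes that the naming rule picked and that are given here. For 27 of these 28 the log2 difference was lower at day 32 than at day 5. Of all genes, 12.3% were called negative and 49.7% positive. The naming rule takes in the largest called changes of this same comparison, so these 2 counts are not a result about the family. In the small subunit it was -1.78 for Rps20, -1.64 for Rps29, -1.57 for Rps14, -1.53 for Rps21, -1.29 for Rps19, -0.88 for Rps4x, -0.88 for Rps6 and -0.79 for Rpsa. In the stalk it was -1.46 for Rplp1, -1.23 for Rplp2 and -0.79 for Rplp0.

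In the large subunit the interaction was -1.55 for Rpl39, -1.37 for Rpl31, -1.32 for Rpl13a, -1.31 for Rpl35, -1.24 for Rpl35a, -1.24 for Rpl41, -1.20 for Rpl38, -1.18 for Rpl36a, -1.16 for Rpl12, -0.97 for Rpl10a, -0.95 for Rpl11, -0.93 for Rpl10, -0.89 for Rpl5, -0.82 for Rpl22, -0.74 for Rpl3 and -0.37 for Rpl7a. For Rps27 as listed it was 9.07, and with both gene IDs of its locus summed it was -1.51.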

How the results depend on the processing

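Values are in the order day 5, day 32, MGS over time, CV over time and interaction. With median-of-ratios scaling the family's medians were 0.54, -1.36, -1.16, 0.77 and -1.92, with 14 genes higher at day 5 and 0 lower in CV over time. With quantile normalization they were 0.24, -0.42 and -0.46 for the first 3 and -0.63 for the interaction. There were then 2 lower at day 5, 4 lower in CV over time and 2 positive interactions. Fewer genes were called lower at day 32 (50 against 69) and in MGS over time (53 against 69), or had a negative interaction (53 against 72). Relative to the median of all genes, the family's median at day 32 was -0.36 with this normalization and -1.28 without it. From FPKM the family's medians were 0.48, -1.11, -0.98, 0.64 and -1.61, with 0 lower in CV over time. With no filter, 16 were higher at day 5 and 0 in MGS over time. The length and GC correction gave 11 higher and 13 lower at day 5 (median 0.086), -0.81 in MGS over time, 9 and 12 in CV over time (median -0.038, reversed), and 3 positive interactions (median -0.71). Summing gene IDs at one locus, or leaving out Rps27, gave 0 higher at day 32, in MGS over time and in the interaction. The sums gave shares of 11.1% and 6.48% in MGS at days 5 and 32, and reversed Rps27 to -0.69, -0.71 and -1.51 at day 32, in MGS over time and in the interaction. Rpl7a in CV over time reversed to 0.13 with median-of-ratios scaling and to 0.0018 from FPKM. Against the family's median, the length and GC correction put 14 genes above and 17 below at day 5, and 26 and 12 at day 32. The cause of these changes was not tested. Whether replicate numbers pair the samples is not known from the labels. Same-number correlations across genes were -0.13 to 0.44, highest between CV at day 5 and CV at day 32, and cannot settle it. A replicate block gave 35 higher and 1 lower, 1 and 71, 1 and 72, 39 and 3, and 1 and 74. With the length and GC correction the block gave 15 and 12 at day 5 (median 0.086) and 11 and 14 in CV over time (median -0.038, reversed). The median in MGS over time was then -0.81, and 3 interactions were positive (median -0.71). Shares of all genes are not set beside the counts of calls in this paragraph, so changes in them are not a result about the family. Leaving out 1 library gave 2 to 51 higher and 1 to 3 lower at day 5 (median 0.30 to 0.39), 0 to 1 and 43 to 77 at day 32 (-0.96 to -0.51), 0 to 1 and 26 to 75 in MGS over time (-0.76 to -0.68), 10 to 61 and 1 to 6 in CV over time (0.13 to 0.61), and 0 to 2 and 56 to 74 in the interaction (-1.29 to -0.85). Against the family's median it gave 0 to 9 above and 3 to 13 below at day 5, and 2 to 16 and 1 to 10 at day 32. With 2 libraries a group, each value rests on few samples.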
